A study of Mus musculus with 48 samples.

Results

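The genes described here carry the names of 3 classes of splicing factor proteins and were measured in mouse embryonic stem cells. They were chosen by name only, as the rows of the gene count table whose symbol begins with Srsf and a number, Hnrnp, Sf3a, Sf3b, Snrp, Lsm and a number, or Prpf and a number, without rows named as pseudogenes. This took 79 of 55376 genes: 11 SR protein genes (Srsf), 20 hnRNP genes (Hnrnp) and 48 genes grouped as snRNP proteins (Sf3a, Sf3b, Snrp, Lsm and Prpf). The snRNP group so defined includes some Lsm genes with other roles. Of the 79, 72 were among the 8272 genes counted as expressed and were tested: 10 SR, 18 hnRNP and 44 snRNP genes. A gene counted as expressed when its mean count over all libraries was at least 10-fold above a background measured on 1434 olfactory and vomeronasal receptor genes. The 7 members under that level were Hnrnpll, Hnrnpr, Lsm11, Prpf18, Prpf40b, Prpf4b and Srsf12.

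Splicing removes introns from the primary transcript while RNA polymerase II is still making it. The spliceosome is built from small nuclear RNAs held in particles, the snRNPs, each with a ring of Sm or LSm proteins and further proteins of its own. SR proteins bind exons through their RNA recognition motifs and, through arginine and serine repeats, mostly help splice sites to be recognised, whereas hnRNP proteins coat the transcript and often keep sites from being used. Many SR and hnRNP genes carry poison exons whose inclusion leads to decay of their own mRNA.

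The study set inhibition of the SWI/SNF remodelling ATPases against knockdown of the NuRD ATPase CHD4, and its title asks how the effects on gene expression relate to RNA polymerase II at promoters. All 8 nascent RNA libraries came from 1 embryonic stem cell line, TCF2.2, of strain C57BL/6 per the labels, grown in 2i medium, which holds the cells in a naive pluripotent state. BRM014, which blocks the ATPases BRG1 and BRM, was given at 10 µM for 3 h (genotype BRG1 inhibited), and DMSO for 3 h was its control (BRG1 WT). The other cells were transduced with lentivirus carrying an shRNA against Chd4 (Chd4 KD) or a scrambled shRNA (Chd4 WT), and both were kept for 24 h in medium with 1.5 µg/mL puromycin, so both sets of shRNA cells are mixed populations of transduced cells. Every culture took up 500 µM 4-thiouridine for 5 min, so that RNA made in that time could be pulled down through the label, and each group has 2 libraries from biological duplicates. The labels do not say how many shRNAs against Chd4 were used. The 40 chromatin immunoprecipitation samples of the series were not analysed here.

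The libraries held from 6982354 to 17128981 gene counts, the lowest being those labelled Chd4 shRNA. Counts over the receptor genes, which embryonic stem cells are not expected to transcribe, were 6.78 and 7.21 per kb of exon in the libraries labelled Chd4 shRNA against 1.32 to 2.66 in the other 6. As a share of the counts of each splicing factor class, such background ranged from 6.53% to 8.74% in that pair and from 0.754% to 1.38% elsewhere. The knockdown target, Chd4, was read 730 and 760 times in that pair and 806 and 618 times in the scrambled one. Relative to the other expressed genes it was higher, not lower, by 0.57 ± 0.16 on the log2 scale (SE, adjusted p = 0.00532). These are counts of RNA labelled for 5 min, and neither the whole amount of Chd4 mRNA nor its protein was measured here. Whether the knockdown worked therefore cannot be told from these counts. The libraries are called those labelled Chd4 shRNA throughout. Smarca4, which encodes BRG1, had 678 and 782 counts with BRM014 and 624 and 913 with DMSO (0.13 ± 0.16, adjusted p = 0.718). In the libraries labelled Chd4 shRNA it was higher than in the scrambled ones, as Chd4 was (0.59 ± 0.16, adjusted p = 0.00536). Smarca2, which encodes BRM, was under the expressed level. All 11 embryonic stem cell markers were expressed. Their summed levels, in CPM per kb of exon, were 2175 to 2340 in the libraries labelled Chd4 shRNA and 3268 to 4313 in the others. Relative to other expressed genes, 9 of the 11 were lower with Chd4 shRNA at an adjusted p under 0.05 and 0 were higher. Their median log2 fold change was -0.89, and 20.5% of all expressed genes were called lower. By plain ERCC sums as library sizes 2 of the 11 were lower. None of 6 mesoderm and none of 7 fibroblast markers reached the expressed level, although their summed levels were 7.03 to 11.4 in the libraries labelled Chd4 shRNA and 0.712 to 1.72 elsewhere. The 9 endoderm and extraembryonic markers summed to 10.6 and 12.3 there and to 4.96 to 7.32 elsewhere. The 7 neural markers summed to 16.2 and 15.2 there, to 12.95 and 15.3 in the scrambled libraries, which overlaps, and to 4.79 to 8.14 in the other 4. The 1 expressed gene of each list had a negative log2 fold change with Chd4 shRNA, Tfap2c of -0.69 (adjusted p = 0.0045) and Tubb3 of -0.35 (adjusted p = 0.0811). Background was not subtracted from any of these marker sums, and it was highest in the libraries labelled Chd4 shRNA. A higher sum there therefore does not show that more marker RNA was made. Values after subtraction of background are given for the splicing genes. The scaling was computed anew on the subtracted counts, so these values hold a change of scale as well. For Snrpg, at a mean level of 367.4 with Chd4 shRNA, the log2 fold change went from 0.33 to 0.56. A call lost after subtraction therefore does not show background in that gene.

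Levels are given as CPM per kb of exon, with CPM taken over the counts of the expressed genes after TMM scaling, so that genes of different length can be compared. The median expressed gene stood at 7.40, from means over all 8 libraries. In DMSO alone the class medians over all members, expressed or not, were 12.5 for SR, 14.4 for hnRNP and 10.7 for snRNP genes. Averaged over all 8 libraries, the highest SR genes were Srsf7 (42.2), Srsf2 (27.0) and Srsf5 (22.8), and the lowest were Srsf11 (7.22), Srsf4 (4.00) and Srsf12 (0.348). Srsf12 had 2 to 21 counts per library, and in the libraries labelled Chd4 shRNA the expected background alone came to 102% and 113% of its counts. Hnrnpa1 (91.6), Hnrnpab (49.4) and Hnrnpc (45.0), whose products package nascent transcripts, led the hnRNP genes, and Hnrnph2 (4.00), Hnrnpll (2.49) and Hnrnpr (1.75) came last. The snRNP class had the widest range, from Snrpg (323.6), Snrpe (221.9), both in the Sm ring, and Lsm4 (209.3), in the LSm ring of U6, down to Prpf18 (2.88), Prpf40b (2.12) and Lsm11 (1.40). Snrpert, a near copy of Snrpe, stood at 121.1, and reads of the 2 genes may be split between them.

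With BRM014, 3 of the 72 tested splicing factor genes rose against DMSO and 0 fell: Srsf1, Hnrnph2 and Prpf38b, 1 in each class. In edgeR's quasi-likelihood F test at a Benjamini-Hochberg adjusted p under 0.05 over the 8272 expressed genes, this is 4.17% of the members, beside 7.75% called over all expressed genes (3.12% higher and 4.63% lower). At an unadjusted p under 0.05, 13 members were higher and 1 was lower. The unadjusted counts over all expressed genes are not given here. DESeq2 called 2 members higher and 0 lower, beside 96 and 206 of the 8272 expressed genes. Without DMSO replicate 2 the count of higher members was 12 with 1 lower, and without DMSO replicate 1 there was also 1 lower. With library sizes from the ERCC spike-in RNAs, no member was called in either direction. Few of the 8272 expressed genes were called with these sizes. The calls were 0 with TMM-scaled totals, 11 higher and 93 lower with plain sums, and 7 and 75 with TMM over the 5 abundant ERCC RNAs.

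Srsf1 encodes the SR protein also known as ASF/SF2, which promotes use of 5′ splice sites near the exon sequences it binds. Its level was 12.8 and 16.3 in the DMSO libraries and 25.1 and 23.2 with BRM014. Both treated libraries lay above both controls, and above the scrambled (16.5 and 15.0) and Chd4 shRNA (14.7 and 15.6) libraries as well. The log2 fold change was 0.73 ± 0.14 (SE, adjusted p = 0.00108), a 1.66-fold rise, and the call held under each alternative that did not use ERCC sizes and had no requirement on the size of the change.

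Hnrnph2, on the X chromosome, encodes an hnRNP H family protein that binds runs of G in RNA. It stood at 2.91 and 3.43 with DMSO and at 4.89 and 4.75 with BRM014. The groups did not overlap, and the log2 fold change was 0.60 ± 0.13 (adjusted p = 0.00357). Prpf38b, which encodes a protein related to yeast Prp38, stood at 3.53 and 4.33 with DMSO and at 5.68 and 5.40 with BRM014, again with no overlap. Its log2 fold change was 0.49 ± 0.14 (adjusted p = 0.0304), and this call was lost with DESeq2 and without BRM014 replicate 1, BRM014 replicate 2, Chd4 shRNA replicate 1 or DMSO replicate 1, with adjusted p up to 0.207.

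The promoters of these 3 genes are shown because no other members passed the test with BRM014. Each line gives the 250 bases before the RefSeq start site (GRCm38.p6) on the gene's own strand, which lie at chr11:88047123-88047372 (plus strand), chrX:134600929-134601178 (plus strand) and chr3:108911730-108911979 (minus strand). Capitals mark matches on either strand to any of 9 short motifs, which in these genes were the GC box of SP and KLF factors (GGGCGG), the CCAAT box (CCAAT) and the core of the CRE (TGACG).
Srsf1: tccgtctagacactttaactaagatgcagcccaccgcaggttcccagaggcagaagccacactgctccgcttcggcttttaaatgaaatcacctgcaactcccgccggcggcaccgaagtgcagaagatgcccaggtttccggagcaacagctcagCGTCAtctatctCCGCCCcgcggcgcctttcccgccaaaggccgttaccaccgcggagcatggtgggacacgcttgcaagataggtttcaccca
Hnrnph2: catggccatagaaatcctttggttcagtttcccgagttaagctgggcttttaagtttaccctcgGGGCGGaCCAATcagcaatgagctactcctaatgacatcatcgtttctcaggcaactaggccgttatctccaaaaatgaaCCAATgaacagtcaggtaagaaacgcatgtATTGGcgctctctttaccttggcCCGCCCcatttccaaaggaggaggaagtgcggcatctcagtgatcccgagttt
Prpf38b: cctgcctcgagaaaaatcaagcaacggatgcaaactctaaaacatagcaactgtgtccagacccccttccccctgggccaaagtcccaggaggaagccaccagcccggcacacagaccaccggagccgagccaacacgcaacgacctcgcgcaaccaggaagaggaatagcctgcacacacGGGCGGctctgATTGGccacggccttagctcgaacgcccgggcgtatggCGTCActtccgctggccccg
The Srsf1 stretch holds 2 matches and 19 CpG dinucleotides, that of Hnrnph2 5 matches and 10 CpG, and that of Prpf38b 3 matches and 19 CpG. No match overlapped another.

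Of the 72 members, the 3 called ones included, 51 had a positive log2 fold change with BRM014, most without passing the test. They were 9 of the 10 SR genes, 17 of the 18 hnRNP genes and 25 of the 44 snRNP genes. The class medians were 0.16 for SR, 0.15 for hnRNP and 0.03 for snRNP genes, where the median expressed gene stood at 0.01, and the quartiles of all expressed genes were -0.16 and 0.16. Single libraries moved these medians: without DMSO replicate 1 those of SR and hnRNP genes were 0.079 and 0.054, and without DMSO replicate 2 they were 0.30 and 0.29. The hnRNP median was 0.24 without BRM014 replicate 2, and that of snRNP genes was 0.073 to 0.078 without either DMSO library or BRM014 replicate 1. The summed counts of the SR class were 703.2 and 761.9 CPM with DMSO and 880.9 and 870.9 with BRM014, and those of the hnRNP class 1845 and 2132 against 2278 and 2246. In both classes the treated libraries lay above both controls. The snRNP sums overlapped, at 3936 and 3497 with DMSO and 3689 and 3852 with BRM014. Members of a class are not replicates, and no test was made of a class as a whole. Next to the 3 called genes came Hnrnpc at 0.43 ± 0.14 (adjusted p = 0.0628) and, as the only member lower at an unadjusted p under 0.05, Sf3b4 at -0.38 (adjusted p = 0.0959), both named after their values were seen.

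**Figure D1:**
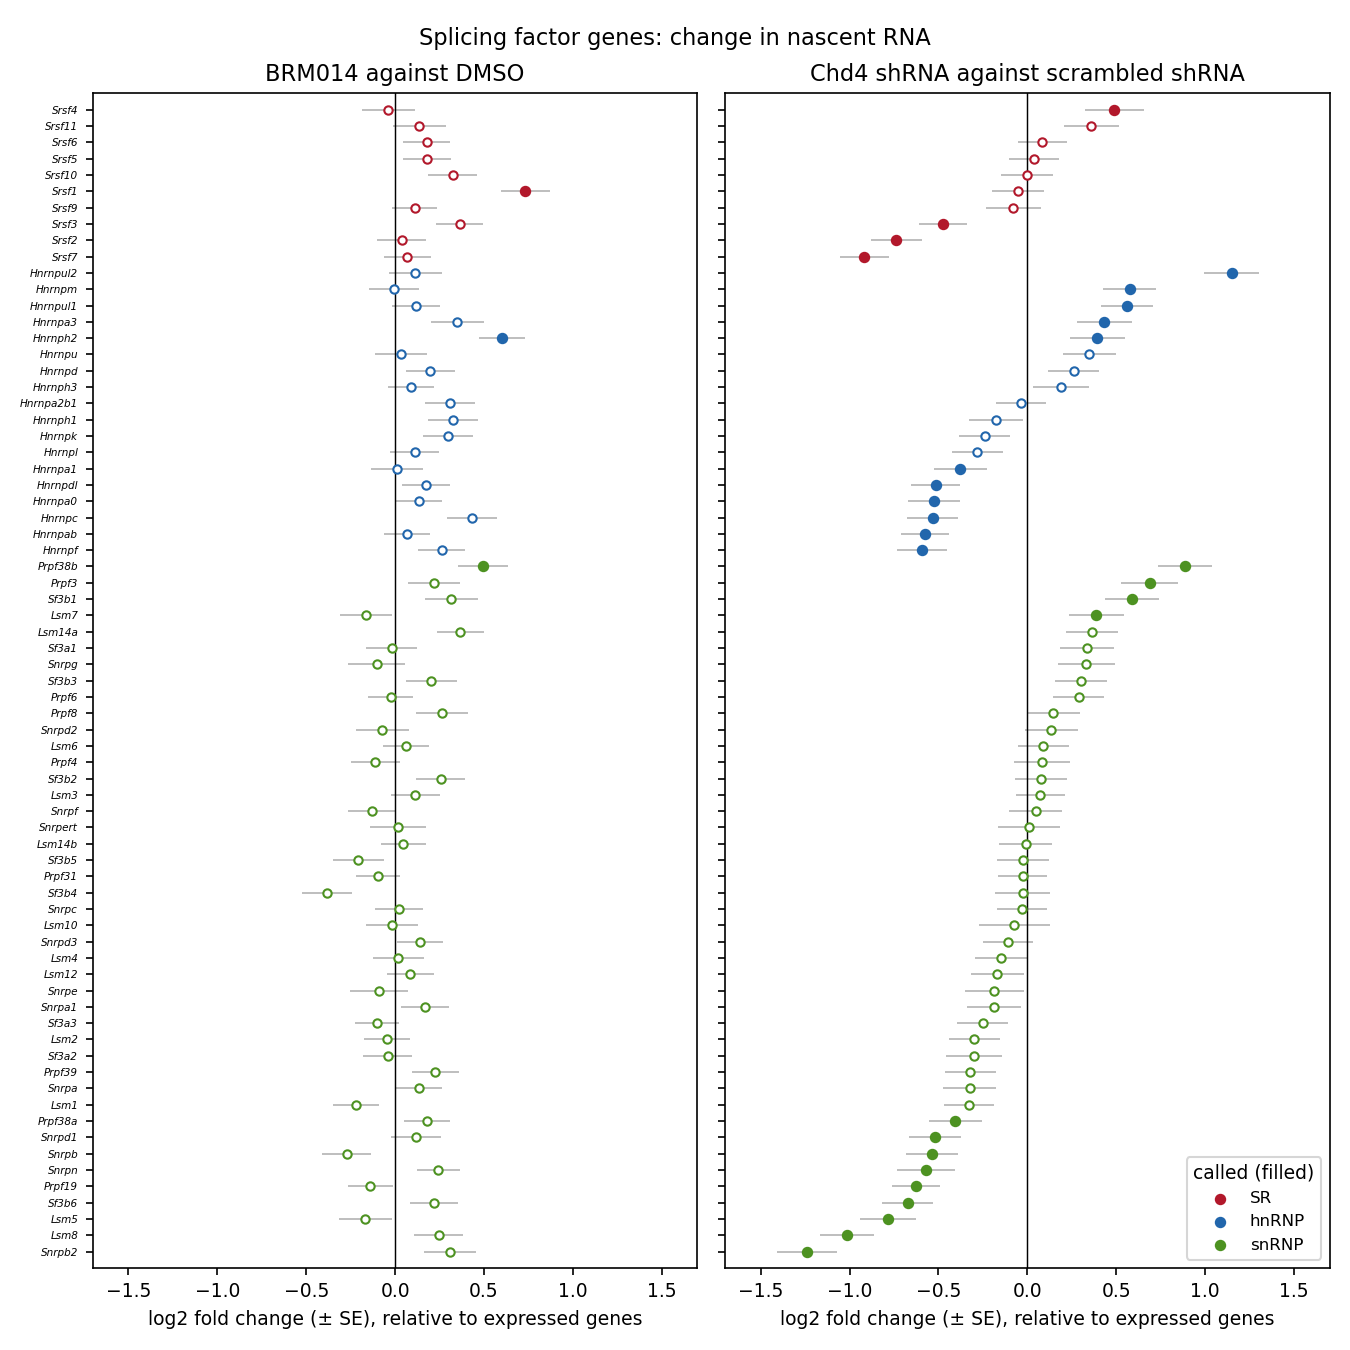
Log2 fold change with its SE for 71 of the 72 tested genes, BRM014 against DMSO on the left and Chd4 shRNA against scrambled shRNA on the right, by class and, within a class, in the order of the right-hand values; filled points passed the test. On the left 3 filled points lie above 0. On the right 10 lie above 0 and 18 below, relative to other expressed genes; every one of the 10 falls below 0 when low genes are kept in the scaling, and 11 of the 18 rise above 0 with plain ERCC sums as library sizes.

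In the libraries labelled Chd4 shRNA, splicing factor genes moved in both directions against the scrambled shRNA: relative to other expressed genes 11 rose, 18 fell and 43 were not called, and these directions depended on the scaling, as given in the next paragraph. The called share was 40.3% of the members, near the 39.9% over all expressed genes (19.4% higher and 20.5% lower). The hnRNP class had 5 higher and 6 lower of 18, the SR class 1 higher and 3 lower of 10, and the snRNP class 5 higher and 9 lower of 44. Class medians were -0.03 for SR, -0.11 for hnRNP and -0.03 for snRNP genes, beside -0.01 over all expressed genes. Leaving out 1 library moved them from -0.076 to 0.052, from -0.21 to 0.017 and from -0.14 to 0.013, with the lowest SR and hnRNP values without Chd4 shRNA replicate 4 and the lowest snRNP value without scrambled replicate 1. Values above 0 came without Chd4 shRNA replicate 1 in all 3 classes, without BRM014 replicate 2 for SR and snRNP genes, without scrambled replicate 1 for SR genes and without scrambled replicate 3 for snRNP genes. The SR class summed to 826.3 and 840.4 CPM in the scrambled libraries and to 658.3 and 713.3 in those labelled Chd4 shRNA, with no overlap. The hnRNP sums (2202 and 2044 against 1945 and 2138) and the snRNP sums (3458 and 3665 against 3505 and 3491) overlapped.

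After subtraction of background in proportion to exonic length, with the scaling computed anew, the counts were 14 higher and 14 lower. DESeq2 gave 9 higher and 17 lower. Over all 8272 expressed genes the counts were 1714 higher and 1623 lower after subtraction and 1334 and 1365 with DESeq2. When all genes passing edgeR's filter on low counts were kept, many of them near the background, 1 member was higher and 77 were lower. Of the 35426 genes then tested, 11493 were higher and 11134 lower. With genes at least 3-fold above background the counts were 3 higher and 41 lower, beside 3931 and 4019 of 17664 genes. Plain ERCC sums as library sizes gave 22 higher and 0 lower, beside 2836 and 62 of 8272 expressed genes. TMM over the 5 abundant ERCC RNAs gave 10 higher and 0 lower, beside 1664 and 50. TMM-scaled totals of all 92 ERCC RNAs gave 0 and 0, beside 57 and 6. These ERCC scales moved the median of all expressed genes to 0.59, 0.49 and 0.19, so the values below are relative to the expressed genes and not amounts per cell. Fewer cells making an RNA and less of it per cell cannot be told apart in such bulk libraries. The count of higher members was 6 without Chd4 shRNA replicate 4, 3 without scrambled replicate 3 and 17 without DMSO replicate 2, and that of lower members was 8 without Chd4 shRNA replicate 1.

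The 2 SR genes with the highest levels, Srsf7 and Srsf2, both fell, as did Srsf3. Srsf7, whose product is an SR protein with a zinc knuckle that also takes part in mRNA export, stood at 47.1 and 53.3 in the scrambled libraries and at 25.9 and 27.3 in those labelled Chd4 shRNA. Its log2 fold change was -0.92 ± 0.14 (adjusted p = 1.85e-05), and after subtraction of background -0.74 (adjusted p = 0.000207). Srsf2, which encodes the exon-binding SR protein SC35, stood at 28.6 and 33.5 against 16.7 and 20.6. In both genes each library labelled Chd4 shRNA was below every one of the other 6. The log2 fold change of Srsf2 was -0.74 ± 0.15 (adjusted p = 0.000309); Mettl23, which overlaps Srsf2 on the other strand, held 35.3% as many counts, and the strand setting of the counting is not given in the sources used here.

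Srsf3, the smallest SR protein, stood at 23.7 and 24.6 in the scrambled libraries and at 16.7 and 18.0 in those labelled Chd4 shRNA. The groups did not overlap (-0.48 ± 0.14, adjusted p = 0.00692), but the adjusted p was 0.0552 after subtraction of background and the call was also lost without Chd4 shRNA replicate 1. Srsf4 was the 1 SR gene that rose, from 4.55 and 3.40 to 6.02 and 5.13, by 0.49 ± 0.17 (adjusted p = 0.0211). The Srsf4 groups did not overlap, but expected background made up 18.1% and 22.9% of its counts in the libraries labelled Chd4 shRNA, and the adjusted p after subtraction was 0.04995. The call was lost with DESeq2. A noncoding gene on the same strand, A930004J17Rik, overlaps Srsf4 and held 58.0% as many counts. Srsf1, which rose with BRM014, had a log2 fold change of -0.05 ± 0.15 here (adjusted p = 0.796).

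**Figure D2:**
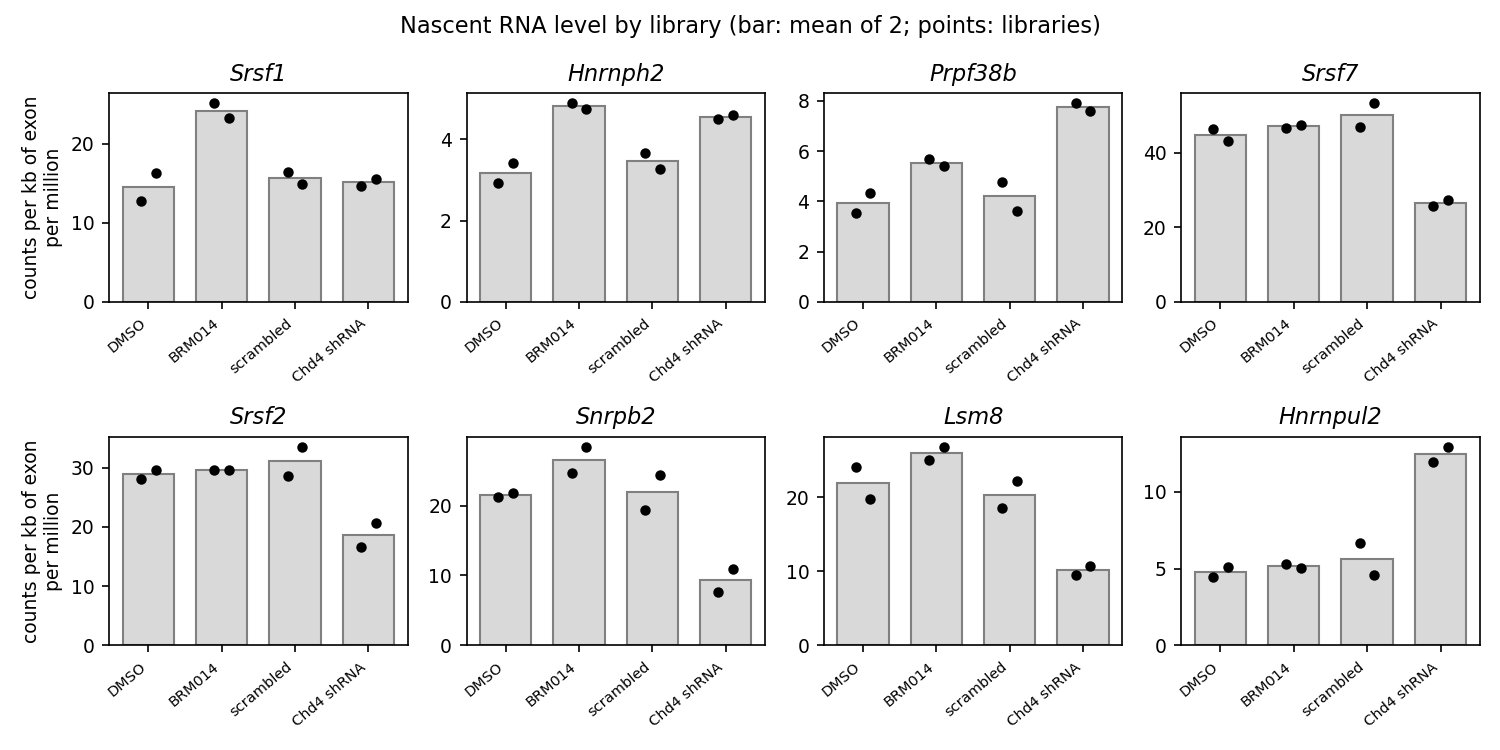
Level of 8 members in CPM per kb of exon in each library, with bars for the mean of the 2 libraries of a group and points for the libraries; each vertical axis starts at 0. Srsf1 is highest with BRM014 (25.1 and 23.2), Prpf38b is higher with BRM014 and highest with Chd4 shRNA (7.90 and 7.60), and Srsf7, Srsf2, Snrpb2 and Lsm8 are lowest in the libraries labelled Chd4 shRNA.

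Of the 18 tested hnRNP genes 5 rose, 6 fell and 7 were not called. Hnrnpul2, which encodes an hnRNP U-like protein, stood at 6.64 and 4.58 in the scrambled libraries and at 12.0 and 12.9 in those labelled Chd4 shRNA. The treated libraries lay well above all others, and the log2 fold change was 1.15 ± 0.15 (adjusted p = 4.06e-06), the largest rise among the 72 members. After subtraction of background, which was 9.13% and 9.08% of its counts there, it was 1.29 (adjusted p = 2.37e-06). Hnrnpul1, a related gene, went from 5.37 and 4.70 to 7.56 and 7.29 (0.56 ± 0.14, adjusted p = 0.0034). Hnrnpm, whose product regulates alternative exons, went from 8.78 and 6.43 to 11.4 and 11.2 (0.57 ± 0.15, adjusted p = 0.00309). Neither gene's groups overlapped, yet both calls were lost without scrambled replicate 3. Hnrnpa3, an hnRNP A/B family gene, went from 21.4 and 15.8 to 23.2 and 27.1 (0.43 ± 0.15, adjusted p = 0.029), with scrambled replicate 1 close to the lower treated library. The remaining gene that rose was Hnrnph2 (0.39 ± 0.15, adjusted p = 0.0434); expected background was 24.3% and 25.6% of its counts, and after subtraction the adjusted p was 0.179.

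Hnrnpab, which encodes an hnRNP A/B protein, stood at 55.0 and 56.1 in the scrambled libraries and at 36.6 and 37.9 in those labelled Chd4 shRNA (-0.58 ± 0.13, adjusted p = 0.00146). Hnrnpf, whose product binds G-rich RNA as that of Hnrnph2 does, went from 32.7 and 34.2 to 20.7 and 23.7 (-0.59 ± 0.14, adjusted p = 0.00165). The groups of both genes were apart, and the libraries labelled Chd4 shRNA were the lowest of all 8. Hnrnpdl, an hnRNP D-like gene, went from 22.3 and 24.5 to 15.5 and 17.2 (-0.52 ± 0.14, adjusted p = 0.00469). Hnrnpc, whose product binds runs of U and counts the length of new transcripts, went from 48.2 and 54.5 to 32.4 and 38.6 (-0.53 ± 0.14, adjusted p = 0.00485). Here the groups were also apart, but Chd4 shRNA replicate 4 lay between the DMSO values for Hnrnpc (37.5 and 42.0), and after subtraction of background its adjusted p was 0.0647. Hnrnpa0 (-0.53) and Hnrnpa1 (-0.38) also fell, the latter with an adjusted p of 0.403 after subtraction of background. Of these genes Hnrnpab overlaps Phykpl, a gene on the other strand with 48.7% as many counts. Hnrnpa1 has processed copies, and the row Hnrnpa1l2-ps2 held 41 to 203 counts per library, so its counts may be shared.

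Of the 9 snRNP genes that fell, 5 encode ring proteins (Lsm5, Lsm8, Snrpb, Snrpd1 and Snrpn) and 2 proteins of the U2 particle (Snrpb2 and Sf3b6). Snrpb2, which encodes the U2 protein B″, stood at 19.4 and 24.5 in the scrambled libraries and at 7.67 and 10.9 in those labelled Chd4 shRNA. Both were far below the other 6 libraries (19.4 to 28.4), and the log2 fold change was -1.24 ± 0.17 (adjusted p = 4.32e-06), the largest fall among the members. Lsm8, the subunit that sets the nuclear LSm ring of U6 apart from the cytoplasmic ring with Lsm1, went from 18.6 and 22.1 to 9.47 and 10.7 (-1.01 ± 0.15, adjusted p = 1.6e-05). Lsm5, a subunit of both rings, went from 156.1 and 167.9 to 84.4 and 103.8 (-0.78 ± 0.16, adjusted p = 0.000339). Sf3b6, whose product lies at the branch point within SF3b, went from 33.0 and 40.9 to 22.0 and 24.3 (-0.67 ± 0.14, adjusted p = 0.000698). For all 4 genes the libraries labelled Chd4 shRNA were below the other 6, and the calls held after subtraction of background.

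The promoters of Srsf7, Snrpb2 and Lsm8, which had the 3 smallest adjusted p among the members that fell, are shown in the same way. They lie at chr17:80207306-80207555 (minus strand), chr2:143062819-143063068 (plus strand) and chr6:18848385-18848634 (plus strand), and capitals here mark the GC box (GGGCGG), the core bound by ETS factors (CCGGAAG) and the core bound by NRF1 (GCGCATGC), on either strand.
Srsf7: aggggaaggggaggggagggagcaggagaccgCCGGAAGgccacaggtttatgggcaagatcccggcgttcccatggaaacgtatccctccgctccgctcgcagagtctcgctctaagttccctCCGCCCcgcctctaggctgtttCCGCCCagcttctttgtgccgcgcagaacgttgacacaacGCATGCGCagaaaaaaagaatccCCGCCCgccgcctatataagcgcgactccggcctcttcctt
Snrpb2: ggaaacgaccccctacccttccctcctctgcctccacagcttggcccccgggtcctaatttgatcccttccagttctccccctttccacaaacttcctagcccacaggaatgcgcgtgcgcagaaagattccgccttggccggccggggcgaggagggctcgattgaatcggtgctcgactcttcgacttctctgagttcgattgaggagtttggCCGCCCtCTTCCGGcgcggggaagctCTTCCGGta
Lsm8: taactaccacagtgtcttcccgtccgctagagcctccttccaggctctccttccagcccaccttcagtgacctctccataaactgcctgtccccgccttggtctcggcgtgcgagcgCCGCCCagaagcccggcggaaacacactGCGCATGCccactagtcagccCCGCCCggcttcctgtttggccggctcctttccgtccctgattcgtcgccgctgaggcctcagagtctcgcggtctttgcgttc
Snrpb2 holds 2 ETS cores close to the start site, and Srsf7 and Lsm8 each hold 1 NRF1 core. A promoter was found for 67 of the 79 members, and 26.9% of these held an ETS core, 5.97% an NRF1 core, 65.7% a GC box, 44.8% a CCAAT box and 34.3% a CRE core. Over 4521 expressed genes with a promoter the shares were 18.2%, 5.64%, 61.6%, 40.3% and 30.4%. By class the ETS core was in 4 of 11 SR, 2 of 18 hnRNP and 12 of 38 snRNP promoters. It was in 6 of the 16 promoters of members that fell with Chd4 shRNA and in 1 of the 9 of those that rose. The TATA box (TATAAA) was in 7.46% of members and 6.08% of expressed genes, the E-box (CACGTG) in 7.46% and 9.18%, the YY1 core (AAGATGGC) in 1.49% and 2.48%, and the octamer (ATTTGCAT) in 0% and 1.22%. A match is a match of letters only.

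Among the 11 tested U2 genes, SF3a and SF3b included, Sf3b1 rose and Snrpb2 and Sf3b6 fell. Of the 8 Sm ring genes Snrpn (-0.57, adjusted p = 0.00694), Snrpb (-0.54, adjusted p = 0.00469) and Snrpd1 (-0.52, adjusted p = 0.00673) fell and 0 rose; the adjusted p of Snrpb and Snrpd1 after subtraction of background were 0.0726 and 0.091. The overlapping row Gm38393, on the strand of Snrpn, held 82.2% as many counts as it. Of the 7 U6 LSm genes Lsm5 and Lsm8 fell, and Lsm7 rose by 0.39 (adjusted p = 0.0477), a call that was lost with DESeq2. Neither U1 gene (Snrpa and Snrpc) and none of the 5 tested LSm genes of other roles passed the test.

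The 5 snRNP genes that rose included Prpf38b, Prpf3, Sf3b1 and Lsm7. Prpf38b stood at 4.76 and 3.63 in the scrambled libraries and at 7.90 and 7.60 in those labelled Chd4 shRNA. The groups were far apart, and the log2 fold change was 0.89 ± 0.15 (adjusted p = 6.8e-05). Prpf3, a protein of the U4/U6 particle, went from 3.58 and 3.11 to 4.67 and 6.11 (0.69 ± 0.16, adjusted p = 0.00142). Sf3b1, the branch point protein that is often mutated in myelodysplastic syndromes, went from 6.59 and 5.60 to 8.39 and 9.94 (0.59 ± 0.15, adjusted p = 0.00387). The groups of Prpf38b, Prpf3 and Sf3b1 did not overlap, and after subtraction of background the adjusted p stayed under 0.05 for all 3. Prpf3 and Sf3b1 lost their calls without Chd4 shRNA replicate 4. Prpf38a, the closer relative of yeast Prp38, a tri-snRNP protein, fell by 0.41 on the log2 scale (adjusted p = 0.0335), and Prpf19, the ubiquitin ligase of the Prp19 complex, fell by 0.63 (adjusted p = 0.000738).

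The calls that held under each alternative other than the ERCC sizes, the 2 filters that kept genes near background and the requirement on size where the gene was tested, were those of Srsf2, Srsf7, Hnrnpab, Hnrnpul2, Lsm5, Lsm8, Prpf19, Prpf38b, Sf3b6 and Snrpb2. They make up 10 of the 29 calls, 8 of them falls. With a log2 fold change of at least 1 in size required as well, 0 members were called with BRM014 (beside 0.193% of expressed genes higher and 1.49% lower). Then 1 was higher (Hnrnpul2) and 2 were lower (Snrpb2 and Lsm8) with Chd4 shRNA, beside 3.94% and 3.41%. The members that rose had a median exonic length of 6949 bases, those that fell 3002.5 and those not called 3859. Over the 72 members, Spearman's rho of exonic length with the log2 fold change was 0.41, and 0.34 after subtraction of background. Over 8044 expressed genes it was 0.06 and -0.01. Genes share libraries and background and are not independent replicates, so no p is given, and the part that length has in the calls was not tested.

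**Figure D3:**
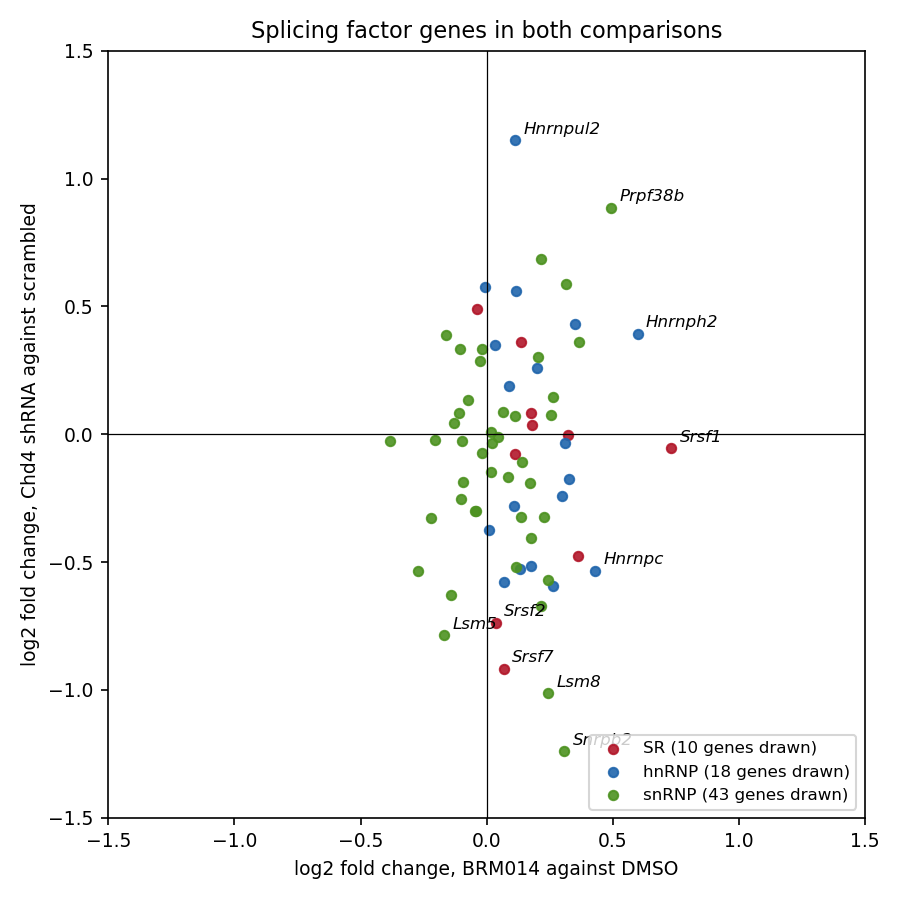
Log2 fold change with BRM014 against DMSO (horizontal) and with Chd4 shRNA against scrambled shRNA (vertical), each point 1 of 71 of the 72 tested genes, coloured by class. The vertical spread (-1.24 to 1.15) is wider than the horizontal one (-0.38 to 0.73); Prpf38b and Hnrnph2 lie to the upper right, Srsf1 to the right near 0, and Snrpb2 and Lsm8 at the bottom, with vertical values relative to other expressed genes and subject to the scaling as in the text.

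Whether the effects of BRM014 and of the Chd4 shRNA differ was tested as the difference of the 2 log2 fold changes, which rest on separate controls. Of the 72 members 19 had a higher value with BRM014 and 2 a lower one, which is 29.2% of members beside 30.8% of all expressed genes (15.4% in each direction). By class, 4 SR genes had a higher value and 0 a lower one, 6 and 2 hnRNP genes did, and 9 and 0 snRNP genes. Snrpb2 differed most (1.55 ± 0.22, adjusted p = 1.73e-05), followed in its class by Lsm8 (1.26 ± 0.21, adjusted p = 7.35e-05), Sf3b6 (0.89 ± 0.20, adjusted p = 0.0015) and Snrpn (0.81 ± 0.20, adjusted p = 0.00365). Among SR genes Srsf7 (0.99 ± 0.19, adjusted p = 0.000455), Srsf3 (0.84 ± 0.19, adjusted p = 0.00166), Srsf1 (0.79 ± 0.20, adjusted p = 0.00457) and Srsf2 (0.77 ± 0.20, adjusted p = 0.00469) were called. For Srsf1 the 2 log2 fold changes were 0.73 with BRM014 and -0.05 with Chd4 shRNA, for Srsf3 0.36 and -0.48, for Srsf7 0.07 and -0.92 and for Srsf2 0.04 and -0.74. The hnRNP genes were led by Hnrnpc (0.96 ± 0.20, adjusted p = 0.000878), Hnrnpf (0.86), Hnrnpdl (0.69) and Hnrnpab (0.64), with Hnrnpul2 (-1.04 ± 0.21, adjusted p = 0.000772) and Hnrnpm (-0.58, adjusted p = 0.0331) on the other side. Hnrnph2 and Prpf38b were higher in both comparisons, with differences of 0.21 (adjusted p = 0.466) and -0.39 (adjusted p = 0.151). With the size requirement 2 had a higher and 1 a lower value, beside 4.69% and 6.47%. With each of the 3 ERCC scalings 0 members had a higher value, and with all genes passing the low-count filter 76 did. The count of 19 was 9 without Chd4 shRNA replicate 1 and 12 without scrambled replicate 3 or BRM014 replicate 2. The count of 2 was 8 without DMSO replicate 1, 5 without scrambled replicate 1, 4 without DMSO replicate 2, and 1 without either BRM014 library, Chd4 shRNA replicate 1 or scrambled replicate 3.

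Other genes of splicing give the setting, from lists written from general knowledge. The counts over all genes with the low-count filter and with ERCC sizes are given above, beside those of the members. Of 18 tested SR protein kinases and SR-related proteins, 12 rose in the libraries labelled Chd4 shRNA and 0 fell relative to other expressed genes, with a median of 0.60, whereas with all genes passing the low-count filter 0 rose and 19 of 22 fell. They were led by Scaf11 (0.88, adjusted p = 5.04e-05), Pnn (0.86, adjusted p = 7.39e-05), the nuclear speckle protein gene Son (0.79, adjusted p = 0.000188) and the SR protein kinase gene Clk2 (0.65, adjusted p = 0.00081). After subtraction of background the same counts, 12 and 0, were found. The count of 12 was 8 without scrambled replicate 3. The 12 genes are 66.7% of the list, beside 19.4% of all expressed genes called higher. The SR genes proper had 1 higher and 3 lower. With BRM014, Rsrc2 of this list rose (0.44, adjusted p = 0.0322) and Son fell (-0.62, adjusted p = 0.00888).

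Of 16 tested genes listed for recognition of the 3′ splice site and branch point 7 rose with Chd4 shRNA and 0 fell. Sugp1 (0.86), Dhx38 (0.69), Ddx42 (0.63) and U2surp (0.59) led them. Dhx38 encodes a helicase of the catalytic steps, but it was placed in this list and is counted here, not with the catalytic genes. With all genes passing the low-count filter 0 rose and 16 of 18 fell. The 7 became 3 without Chd4 shRNA replicate 4 or scrambled replicate 3, and 1 gene was lower without DMSO replicate 2. The 15 genes for assembly of snRNPs, among them the SMN complex that loads Sm rings onto the small nuclear RNAs, had 1 higher and 6 lower, with Gemin6 (-1.61, adjusted p = 2.23e-06), Strap (-1.09, adjusted p = 9.57e-06), Gemin2 (-0.92, adjusted p = 3.88e-05) and the Sm protein chaperone gene Clns1a (-0.59, adjusted p = 0.00241) lower. By plain ERCC sums this list had 1 higher and 1 lower, and with all genes passing the low-count filter 0 and 18 of 18. The called share was 43.8% of the branch point list, with a median of 0.06, and 46.7% of the assembly list, with a median of -0.17. Over all expressed genes 39.9% were called (19.4% higher and 20.5% lower), with a median of -0.01.

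The 19 other snRNP protein genes had 5 higher and 4 lower (Usp39 -0.72, Ddx46 0.81, Sart1 0.63 and Snrnp48 0.59). With all genes passing the low-count filter 0 were higher and 22 of 22 lower, and by plain ERCC sums 8 and 0. These counts were 4 and 1 without Chd4 shRNA replicate 1, 2 and 2 without Chd4 shRNA replicate 4, 4 and 2 without scrambled replicate 1, and 3 and 2 without scrambled replicate 3. The 17 genes of the Prp19 complex and the catalytic steps had 3 higher and 4 lower (Ppil1 -0.61, Cwc27 0.62, Ctnnbl1 -0.52 and Bcas2 -0.44), but 0 and 22 of 23 with all genes passing the low-count filter and 6 and 0 by plain ERCC sums. Without Chd4 shRNA replicate 1 they were 1 and 1, without Chd4 shRNA replicate 4 or scrambled replicate 3 they were 0 and 2, and without scrambled replicate 1 they were 3 and 2. Of 24 other RNA-binding protein genes 8 were higher and 3 lower, with Taf15 at 1.07, Pcbp1 at -0.86, Fubp3 at 0.82 and Celf1 at 0.76. With all genes passing the low-count filter 4 of 35 were higher and 27 lower, by plain ERCC sums 18 and 0 of 24, and the counts were 5 and 2 without Chd4 shRNA replicate 4 or scrambled replicate 3 and 8 and 1 without Chd4 shRNA replicate 1. Of 9 genes of the exon junction complex and nonsense-mediated decay 3 were higher and 0 lower, among them Upf2 (1.28) and Casc3 (0.85). With all genes passing the low-count filter 0 of 12 were higher and 9 lower, by plain ERCC sums 5 and 0 of 9, and without either DMSO library 4 and 1. By the edgeR test the called share was 47.4% of the other snRNP genes and 41.2% of the Prp19 and catalytic genes. It was 45.8% of the other RNA-binding protein genes and 33.3% of the exon junction and decay genes. Over all expressed genes the called share was 39.9% (19.4% higher and 20.5% lower). With TMM-scaled totals of all 92 ERCC RNAs 0 genes of these 7 lists were called in either direction. With BRM014, Rbm39 rose (0.68, adjusted p = 0.00192) and Eif4a3 fell (-0.41, adjusted p = 0.0429); in edgeR no gene of the other snRNP, branch point, Prp19 or assembly lists was called, where at an unadjusted p under 0.05 they had 0, 1, 1 and 2 higher and 1, 0, 0 and 2 lower genes.

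**Figure D4:**
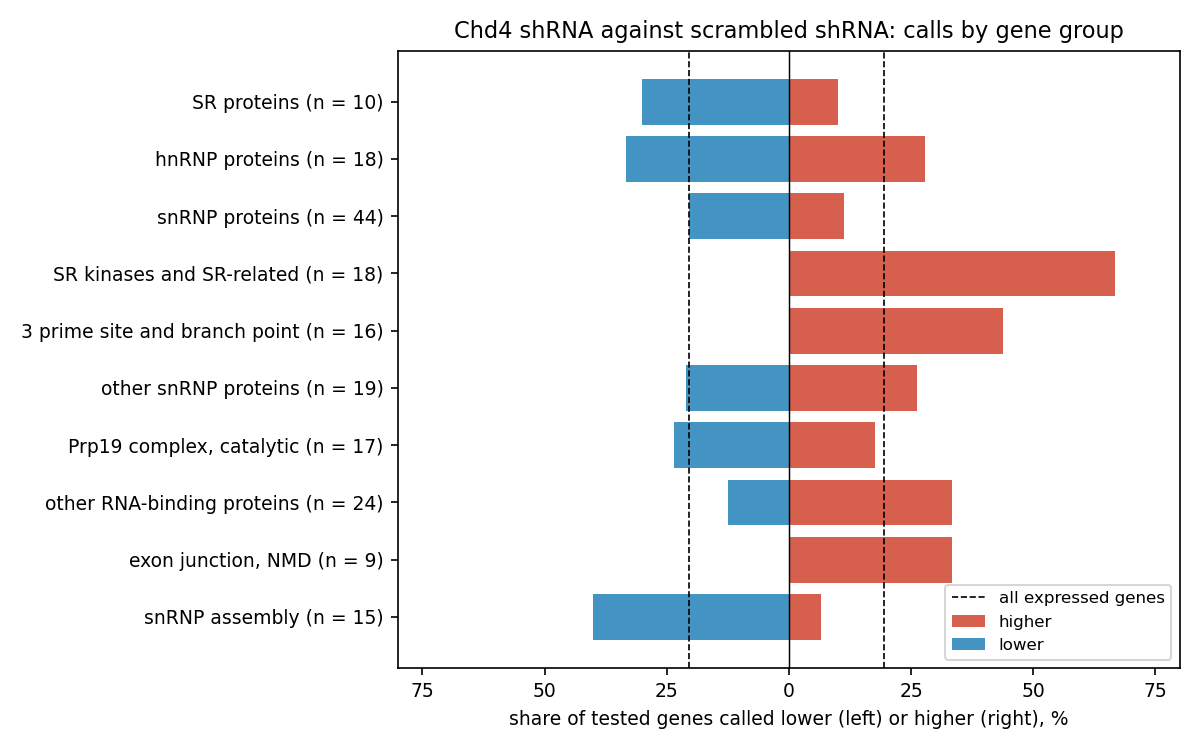
Share of tested genes called lower (blue, to the left) or higher (red, to the right) with Chd4 shRNA for the 3 classes and 7 lists of other splicing genes, with dashed lines at the shares over all expressed genes (20.5% lower and 19.4% higher). The SR kinases and SR-related proteins reach 66.7% higher with 0 lower, and the 15 snRNP assembly genes have 6 lower and 1 higher, both relative to other expressed genes; the first turns to 0 higher when low genes are kept in the scaling.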

How the data were processed

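Nascent RNA of 8 libraries was analysed from a table of whole-number counts of reads per gene, made and deposited by the authors for mm10 with each gene's coordinates and exonic length, and from ERCC spike-in counts deposited in the same way. Per the submitters' processing notes, Trim Galore 0.6.4, STAR 2.7.1a, featureCounts and edgeR 3.32.1 were used; strand and multiple alignments in counting are not given in the sources used here. Groups came from the labels; in each shRNA group the title of 1 library has no matching column number, and its column (r4 or r3) was placed by group name.

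All 8 libraries were fitted together with edgeR 4.0.16 (glmQLFit, glmQLFTest; R 4.3.3), without a replicate block, on 8272 genes at least 10-fold above background, with TMM scaling of these genes. A gene was called at an adjusted p under 0.05; SEs came from the F statistic. With 2 libraries against 2, an exact permutation test cannot go below 0.333. Replicate pairs differed by more than counting noise. The chi-square per degree of freedom was 64.6 with BRM014, 22.9 with DMSO, 4.65 with Chd4 shRNA and 9.235 with scrambled shRNA. The fit shared its estimate of spread over these groups. In simulated data 62 of 67 genes changed 2-fold were recovered in each comparison, with 5 (BRM014) and 7 (Chd4 shRNA) unchanged genes called. The simulation changed 200 genes and gave each gene the same spread in all groups, with no difference in background. It therefore cannot show how many calls are false where spread and background differ between groups, as they do here.

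Up to 4 called members per class and direction with the smallest p are given by library, and up to 4 per list of other genes. Members, lists and the expressed set were chosen with earlier results of these data known. Alternatives were DESeq2 1.42.0, ERCC library sizes, other filters, subtraction of background, a robust fit, a fit on each comparison's 4 libraries, the block, a size requirement and each library left out. The values of 1 called member and 1 gene of the other lists are not reported here, though both are in the counts. Promoters are from RefSeq. Figures were drawn with matplotlib 3.10.9.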

Additional observations from a re-analysis of the deposited data

How the results depend on the processing

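The members called higher and lower numbered 3 and 0 with BRM014, 11 and 18 with Chd4 shRNA, and 19 and 2 for the difference. With TMM-scaled totals of all 92 ERCC RNAs they were 0 and 0, 0 and 0, and 0 and 0; the SR, hnRNP and snRNP medians were 0.26, 0.27 and 0.18 with BRM014 and 0.17, 0.10 and 0.16 with Chd4 shRNA. With plain ERCC sums they were 0 and 0, 22 and 0, and 0 and 2; the SR, hnRNP and snRNP medians were 0.14, 0.14 and 0.037 with BRM014 and 0.60, 0.53 and 0.58 with Chd4 shRNA. With TMM over the 5 abundant ERCC RNAs they were 0 and 0, 10 and 0, and 0 and 1; the SR, hnRNP and snRNP medians were 0.098, 0.10 and -0.00621 with BRM014 and 0.51, 0.45 and 0.49 with Chd4 shRNA. With all 35426 genes passing filterByExpr they were 3 and 0, 1 and 77, and 76 and 0; the SR, hnRNP and snRNP medians were 0.24, 0.21 and 0.074 with BRM014 and -1.34, -1.26 and -1.36 with Chd4 shRNA. With no filter they were 3 and 0, 1 and 77, and 76 and 0; the SR, hnRNP and snRNP medians were 0.24, 0.21 and 0.073 with BRM014 and -1.496, -1.41 and -1.51 with Chd4 shRNA. At 3-fold above background they were 3 and 1, 3 and 41, and 40 and 2; the SR, hnRNP and snRNP medians were 0.18, 0.18 and 0.043 with BRM014 and -0.41, -0.31 and -0.41 with Chd4 shRNA. At 30-fold they were 2 and 0, 7 and 12, and 11 and 2; the SR, hnRNP and snRNP medians were 0.14, 0.22 and 0.024 with BRM014 and -0.087, -0.14 and 0.064 with Chd4 shRNA. After subtraction of background they were 3 and 0, 14 and 14, and 15 and 4; the SR, hnRNP and snRNP medians were 0.16, 0.15 and 0.032 with BRM014 and 0.065, 0.037 and 0.033 with Chd4 shRNA. With a log2 change of at least 1 also required they were 0 and 0, 1 and 2, and 2 and 1. DESeq2, the robust fit and fits on 4 libraries gave counts within 1.5 times of these. Leaving out each library in turn, the count with BRM014 ran from 2 to 12 higher and 0 to 1 lower, that with Chd4 shRNA from 3 to 17 and 8 to 21, and that of the difference from 9 to 23 and 1 to 8. The medians of SR, hnRNP and snRNP genes then ran from 0.079 to 0.30, 0.054 to 0.29 and 0.023 to 0.078 with BRM014 and from -0.076 to 0.052, -0.21 to 0.017 and -0.14 to 0.013 with Chd4 shRNA. A group left with 1 library was assumed to vary like the others. With the replicate block for BRM014 and DMSO the counts were 3 and 0, and 17 and 2 for the difference. Same-numbered BRM014 and DMSO libraries deviated in opposite directions (correlation -0.223 over 8272 genes), and a crossed pairing, added after the data were seen, gave 4 and 0, and 20 and 3. Chd4 shRNA and scrambled libraries share only the number 1, so no paired fit was possible there. Over all genes tested with Chd4 shRNA, 8679 of 54064 were higher and 11939 lower with no filter. At 30-fold above background these were 891 and 828 of 3726.

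Called genes changed sign under 4 settings and no others, and the cause was not tested. By plain ERCC sums the log2 fold change with Chd4 shRNA was Hnrnpa0 0.11, Hnrnpa1 0.24, Hnrnpab 0.043, Hnrnpc 0.11, Hnrnpdl 0.11, Hnrnpf 0.041, Prpf38a 0.22, Snrpb 0.089, Snrpd1 0.11, Snrpn 0.029, Srsf3 0.15, and the difference Hnrnpk -0.12, Lsm5 -0.00829, Prpf19 -0.12, Prpf38a -0.056, Prpf39 -0.086. By TMM over abundant ERCC RNAs they were Hnrnpa0 0.017, Hnrnpa1 0.15, Hnrnpc 0.019, Hnrnpdl 0.022, Prpf38a 0.14, Snrpd1 0.015, Srsf3 0.061, and Hnrnpk -0.067, Prpf19 -0.069, Prpf38a -0.00931, Prpf39 -0.039. With all genes passing filterByExpr, which are scaled together with genes near background, they were Hnrnpa3 -0.91, Hnrnph2 -0.94, Hnrnpm -0.76, Hnrnpul1 -0.78, Hnrnpul2 -0.19, Lsm7 -0.95, Prpf3 -0.65, Prpf38b -0.45, Sf3b1 -0.75, Srsf4 -0.85, and Hnrnpm 0.82, Hnrnpul2 0.36. Without a filter they were Hnrnpa3 -1.06, Hnrnph2 -1.10, Hnrnpm -0.92, Hnrnpul1 -0.93, Hnrnpul2 -0.34, Lsm7 -1.10, Prpf3 -0.80, Prpf38b -0.61, Sf3b1 -0.90, Srsf4 -1.004, and Hnrnpm 0.97, Hnrnpul2 0.52. In simulated data 33 of 67 genes changed 1.5-fold were recovered in the Chd4 shRNA comparison and 42 of 67 in that of BRM014. A member not called is therefore not shown to be unchanged. Depth was not varied, nor were spread and background between groups.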
